A study of Mus musculus with 6 samples.

Results

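The complement system was examined in mouse liver as 34 genes for components, regulators and receptors, out of 20894 genes in the table. The members were chosen by name, from a list of complement genes. No measured value set the list, but earlier results of these data were known when it was made. By the cell type known to make them in liver, 21 were grouped as hepatocyte-made, 7 as macrophage-made, 3 as made mainly by other cells and 3 as membrane regulators found on many cell types. All 34 had a row, and 33 passed the filter on low counts.

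Both groups were mice carrying the Irf3LSL-2D allele, in which a stop cassette flanked by Cre target sites keeps an active form of the transcription factor IRF3 silent. The IRF3-2D group (3 liver samples) had been injected with AAV8-TBG-Cre, an adeno-associated virus that delivers Cre from TBG, a hepatocyte promoter. The Ctrl group (3 liver samples) had been injected with AAV8-TBG-GFP. All 6 samples were taken 2 h after 3 g/kg of ethanol i.p., so every value below is from ethanol-exposed liver. The sources used here give no strain, sex or age. Each library is called a liver below, although the sources do not state that each came from a separate mouse. The comparison asks which liver genes differ when active IRF3 is switched on in hepatocytes. No group with Cre but without the allele was analysed here, so effects of Cre or GFP cannot be told apart from those of IRF3.

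Complement is a cascade of plasma proteases that tags particles and cells for uptake and can open pores in their membranes. It starts from C1 (classical pathway), from sugar-binding lectins (lectin pathway) or by slow self-activation of C3 (alternative pathway), and it ends in the membrane attack complex of C5b to C9. The liver is the main source of most plasma components, made by hepatocytes, whereas C1q and properdin come largely from macrophages and other myeloid cells. Regulators in plasma and on cell membranes keep the cascade from damaging the host.

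Totals were 12054096 to 13606973 counts per library in IRF3-2D and 13940893 to 14830629 in Ctrl. Irf3 stood at 120 ± 15.3 CPM (counts relative to library size, scaled with TMM factors, which correct for a few genes that take a large share of the reads) in IRF3-2D and 49.8 ± 9.35 CPM in Ctrl liver (SD, n = 3 each). The TMM factors were 1.12 to 1.23 in IRF3-2D and 0.822 to 0.879 in Ctrl, and with library totals alone the median log2 fold change of all tested genes was 0.49 in place of 0.03. Scaling therefore shifted every fold change below by about the same amount, and calls that depend on it are named. Hepatocyte markers were abundant in all libraries (Alb 46216 to 53514 CPM in IRF3-2D and 99840 to 144196 in Ctrl), while Cd68 had at most 2 counts and Fah at most 7 in any library. Several genes known to be strongly expressed in liver were listed near 0 in this way, so the table may cover only part of some genes' transcripts.

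Promoter sequences of 5 members are shown here, to set 3 genes that rose beside the neighbours C8a and C8b, of which C8a fell and C8b was not called. The RefSeq promoter table (GRCm38.p6) gave 28 windows for 26 of the 34 members, each holding 250 bases before and 50 after a start site. These windows were searched on both strands for the interferon-stimulated response element, a pair of GAAA words 2 bases apart, to which IRF factors bind, and for the gamma-activated site, written TTCNNNGAA, to which STAT dimers bind. Matches of both kinds may overlap one another. The first motif was found in 2 of 28 windows (7.14%), those of Vtn and Cd59a, against 3.44% of all 32851 windows. The second was found in 5 of 28 (17.9%), those of C1ra, C8a, Masp2, Vtn and C7, against 8.3% of all windows. In C1ra the match, TTCCCTGAA, began at base 33 after the RefSeq start. Of the 250 bases upstream of each start, read 5′ to 3′ on the strand of the gene, those of 3 genes that rose (C4bp, Mbl2 and C1s1) held neither motif and are printed with those of C8a and C8b, with capitals marking a match.
C4bp, chr1:130661619-130661868, minus strand: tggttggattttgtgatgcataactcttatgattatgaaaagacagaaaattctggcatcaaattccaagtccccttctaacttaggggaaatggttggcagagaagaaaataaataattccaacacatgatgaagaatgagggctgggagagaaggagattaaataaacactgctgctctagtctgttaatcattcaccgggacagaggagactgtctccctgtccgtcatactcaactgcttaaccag
Mbl2, chr19:30232678-30232927, plus strand: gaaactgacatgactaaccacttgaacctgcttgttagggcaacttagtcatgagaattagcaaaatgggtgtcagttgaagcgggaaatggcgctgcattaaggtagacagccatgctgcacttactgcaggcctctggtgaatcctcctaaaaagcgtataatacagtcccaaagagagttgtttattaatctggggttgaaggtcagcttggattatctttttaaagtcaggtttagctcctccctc
C1s1, chr6:124542360-124542609, minus strand: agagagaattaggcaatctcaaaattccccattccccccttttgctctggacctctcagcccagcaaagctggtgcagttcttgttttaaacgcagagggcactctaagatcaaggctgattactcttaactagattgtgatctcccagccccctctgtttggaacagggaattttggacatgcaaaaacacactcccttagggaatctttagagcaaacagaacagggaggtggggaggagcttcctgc
C8a, chr4:104876399-104876648, minus strand: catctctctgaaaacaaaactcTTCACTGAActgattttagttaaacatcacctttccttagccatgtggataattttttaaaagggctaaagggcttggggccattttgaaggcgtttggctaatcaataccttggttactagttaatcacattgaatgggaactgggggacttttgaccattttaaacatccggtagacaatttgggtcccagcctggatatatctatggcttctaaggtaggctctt
C8b, chr4:104766067-104766316, plus strand: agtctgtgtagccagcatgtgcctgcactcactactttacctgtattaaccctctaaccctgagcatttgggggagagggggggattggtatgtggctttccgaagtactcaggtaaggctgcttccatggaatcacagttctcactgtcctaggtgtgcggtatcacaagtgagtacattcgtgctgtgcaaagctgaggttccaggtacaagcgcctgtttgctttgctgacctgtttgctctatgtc
A match describes the letters in the window and is not evidence of binding, and the absence of one says nothing of the factor.

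Of the 33 tested members, 8 rose and 6 fell in IRF3-2D liver at a Benjamini-Hochberg adjusted p under 0.05 by edgeR's quasi-likelihood test, and 19 were not called. Among all 10802 tested genes 26.3% were called, 13.2% higher and 13.1% lower. The members that rose were C4bp, Mbl2, C1ra, C1s1 and Masp1 among hepatocyte-made genes and C1qb, C1qa and Cfp among macrophage-made ones. Those that fell were Clu, C8a, Mbl1, C4b and Cfi, all hepatocyte-made, and Cfd, known as an adipocyte product. Fold changes of these 14 ran from 1.29 to 3.6, and 4 exceeded 2-fold. The calls of 7 of the 14 held in each of the 14 alternatives run: C4bp, Mbl2, C1ra, C1s1, C1qb, Clu and C8a. With library totals alone 13 members were higher and 3 lower, and 88.7% of the calls over all genes were then higher, against 50.1% with TMM. The number higher was 5 without IRF3-2D replicate 2 or without Ctrl replicate 3. The median log2 fold change of the 33 was -0.13, against 0.03 over all tested genes. By step of the cascade, 4 of 8 classical members were higher and 1 lower. The 4 were C1ra and C1s1, both hepatocyte-made, and C1qa and C1qb, both macrophage-made. Among 6 lectin members 2 were higher and 1 lower, and among 3 tested alternative members 1 was higher and 1 lower. In the terminal step 1 of 7 members was lower with none higher. Of the 4 plasma regulators 1 was higher and 2 were lower.

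**Figure D1:**
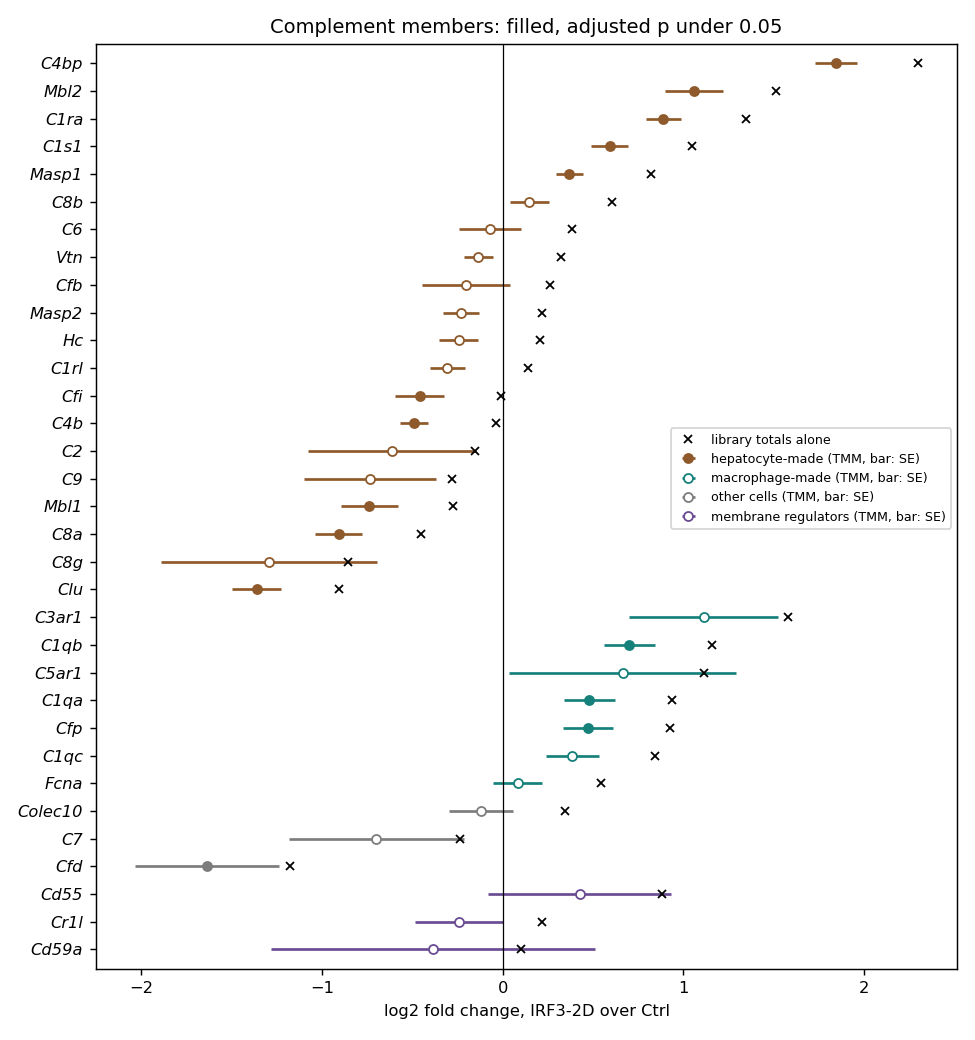
Log2 fold change of IRF3-2D over Ctrl (x axis) for the 33 tested complement members (y axis), grouped and coloured by the cell type that makes them. Circles with bars are TMM-scaled edgeR estimates with their SE, filled where the adjusted p was under 0.05, and crosses are the estimates with library totals alone, which lie to the right of the circles for every member, from C4bp at 1.85 and 2.30 down to Cfd at -1.64 and -1.18.

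Hepatocyte-made genes went in both directions, with 5 higher, 5 lower and 10 not called among the 20 tested. Their median log2 fold change was -0.24 (0.21 with library totals alone). In TMM-scaled CPM the groups did not overlap for 16 of the 20, against 44.9% of all tested genes. These 16 went in both directions, and some depended on the scaling. C1rl, Hc, Masp2 and Vtn lay below Ctrl without a call. Their log2 fold changes were positive with library totals alone (0.14, 0.21, 0.22 and 0.32). Their summed level was 12552 ± 508 CPM in IRF3-2D and 13142 ± 1010 CPM in Ctrl liver (SD, n = 3 each). The sums of single libraries overlapped, at 12208 to 13136 CPM in IRF3-2D and 11976 to 13770 CPM in Ctrl. As a share of all counts, without TMM scaling, the same genes held 1.37% to 1.53% in IRF3-2D and 1.03% to 1.21% in Ctrl, so the direction of the sum depended on the scaling. Beside them, 5 of 8 tested hepatocyte markers were lower and 1 (Ttr) higher, with a summed level of 75697 to 86323 CPM in IRF3-2D and 146591 to 199226 CPM in Ctrl. Without Alb the markers summed to 29481 to 33555 CPM in IRF3-2D and 40222 to 55030 CPM in Ctrl. Much of that remaining gap lay in Serpina1e, at 456 to 1119 CPM in IRF3-2D and 8693 to 16076 CPM in Ctrl. The sums without Alb are therefore not a measure of a fall shared by all markers. As a share of counts, the markers without Alb held 3.61% to 3.79% in IRF3-2D and 3.47% to 4.83% in Ctrl, with overlap. With library totals alone 3 of the 8 markers were lower and 1 higher. Fewer hepatocytes and less RNA per hepatocyte cannot be told apart in bulk liver, and their part in these results was not tested.

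The classical pathway opens with C1, a complex of C1q with the proteases C1r and C1s. C1ra (ENSMUSG00000055172, chromosome 6, 124512405 to 124523443, plus strand, GENCODE M21 on GRCm38), which encodes the mouse C1r protease, had 905, 789 and 863 CPM in IRF3-2D and 431, 502 and 448 CPM in Ctrl livers. C1s1 (ENSMUSG00000038521, chromosome 6, 124530345 to 124542359, minus strand), which encodes the C1s protease activated by C1r, had 1478, 1303 and 1451 CPM in IRF3-2D and 843, 1008 and 956 CPM in Ctrl livers. For both proteases all 3 IRF3-2D livers lay above all 3 Ctrl livers. The log2 fold changes were 0.89 for C1ra (SE 0.10, adjusted p = 0.001, edgeR) and 0.59 for C1s1 (SE 0.10, adjusted p = 0.00579, edgeR). Both genes have near copies, since 56.9% of the 31-base words of C1ra occur in C1rb and 33.5% of those of C1s1 in C1s2. C1rb had 4, 1 and 4 counts in IRF3-2D and 0 in each Ctrl library, and C1s2 had 2, 0 and 4 counts against 0 in each, so the table placed nearly all reads on C1ra and C1s1, although how shared reads were divided is uncertain.

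C1rl, a C1r-like protease gene that ends 1761 bases before C1ra on the same strand, had 169, 156 and 191 CPM in IRF3-2D and 210, 218 and 212 CPM in Ctrl livers, and it was not called (log2 fold change -0.31, SE 0.10, adjusted p = 0.0552, edgeR). C1rl was called lower in 6 of the 14 alternatives and had a positive fold change with library totals alone (0.14). The ratio of C1ra to C1rl counts within a library, which needs no scaling between libraries, was 5.34, 5.06 and 4.51 in IRF3-2D and 2.05, 2.30 and 2.11 in Ctrl, a 2.30-fold difference. The ratio of C1s1 to C1rl was 8.73, 8.34 and 7.58 in IRF3-2D and 4.02, 4.62 and 4.51 in Ctrl, a 1.87-fold difference. In both ratios the groups did not overlap. For each of these ratios the two-sided exact permutation test gave p = 0.1, the smallest p that 3 against 3 allows (0.14 after Benjamini-Hochberg adjustment over 7 ratios, all chosen after their values were seen).

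C4 and C2 are cleaved by C1s to form the C3 convertase of this pathway. C4b (ENSMUSG00000073418, chromosome 17, 34728380 to 34743882, minus strand), which encodes C4, had 1337, 1314 and 1275 CPM in IRF3-2D and 1886, 1887 and 1744 CPM in Ctrl livers, with no overlap (log2 fold change -0.49, SE 0.08, adjusted p = 0.0044, edgeR). This fall was not called with library totals alone, where the log2 fold change was -0.04 (adjusted p = 0.749, edgeR). C4b shares 48.3% of its words with its near copy C4a, which had no row of counts. C2 had 8 to 21 counts in IRF3-2D and 18 to 19 counts in Ctrl libraries, too low for a gene that liver is known to express well. It shares 40.8% of its words with other genes, chiefly Gm20547, and its value may cover only part of its output.

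Among hepatocyte-made lectin pathway genes, the mannose-binding lectins diverged. Mouse has a pair of these sugar-binding plasma proteins, MBL-A from Mbl1 and MBL-C from Mbl2. Mbl2 (ENSMUSG00000024863, chromosome 19, 30232942 to 30239687, plus strand) had 974, 875 and 792 CPM in IRF3-2D and 517, 347 and 402 CPM in Ctrl livers. Mbl1 (ENSMUSG00000037780, chromosome 14, 41151458 to 41159601, plus strand) had 121, 121 and 115 CPM in IRF3-2D and 152, 233 and 211 CPM in Ctrl livers. All IRF3-2D livers were above all Ctrl livers for Mbl2 and below them for Mbl1. Mbl2 rose by 1.06 on the log2 scale (SE 0.16, adjusted p = 0.00354, edgeR), and it has 1 annotated transcript and no word shared with another gene. Mbl1 fell by 0.74 on the log2 scale (SE 0.16, adjusted p = 0.0136, edgeR), a call lost with library totals alone (-0.28, adjusted p = 0.158). The ratio of Mbl2 to Mbl1 counts was 8.02, 7.22 and 6.91 in IRF3-2D and 3.40, 1.49 and 1.91 in Ctrl, a 3.46-fold difference (two-sided exact permutation p = 0.1, adjusted 0.14).

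The MBL-associated serine proteases carry the lectin pathway onward once a lectin has bound. Masp1 (ENSMUSG00000022887, chromosome 16) had 391, 410 and 413 CPM in IRF3-2D and 318, 313 and 310 CPM in Ctrl livers, with no overlap (log2 fold change 0.37, SE 0.08, adjusted p = 0.0121, edgeR). The Masp1 call was lost without IRF3-2D replicate 2 and without Ctrl replicate 3. Masp2 had 247 to 299 CPM in IRF3-2D and 304 to 320 CPM in Ctrl livers and was not called (log2 fold change -0.23, SE 0.10, adjusted p = 0.129, edgeR), though it was called lower by DESeq2 and without IRF3-2D replicate 3.

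**Figure D2:**
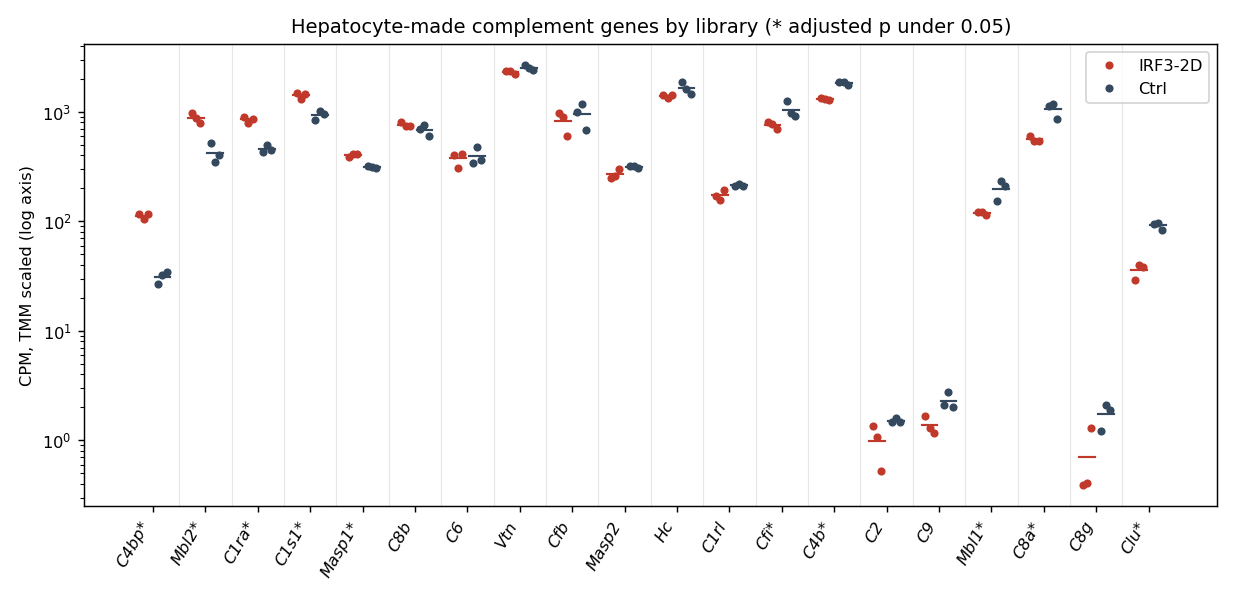
CPM (TMM scaled, log axis) of the 20 tested hepatocyte-made complement genes, ordered by fold change, with 1 point per liver and a line at the mean of the 3 livers of each group (IRF3-2D red, left, and Ctrl dark, right). The IRF3-2D points lie above the Ctrl points without overlap from C4bp (105 to 116 against 26.6 to 34.7 CPM) to Masp1, and below them for Clu (29.0 to 39.6 against 83.6 to 97.1 CPM), and asterisks mark adjusted p under 0.05.

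In the alternative pathway, C3 is the shared central component, factor B (Cfb) forms the convertase and factor D (Cfd) activates factor B. C3, one of the most abundant liver products in general, was listed at 2, 1 and 5 counts in IRF3-2D and 3, 0 and 6 counts in Ctrl libraries and did not pass the filter, so nothing can be said of it from this table. Cfb had 982, 893 and 608 CPM in IRF3-2D and 1001, 1175 and 683 CPM in Ctrl livers. The groups overlapped widely and Cfb was not called (log2 fold change -0.20, SE 0.24, adjusted p = 0.578, edgeR). Cfb shares 75.5% of its words with Gm20547 and lies 85 bases from C2, so how its reads were divided is uncertain.

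Terminal components form the membrane attack complex. C8 is built from alpha, beta and gamma chains, and the genes for alpha and beta lie 11130 bases apart on opposite strands of chromosome 4. C8a (ENSMUSG00000035031, 104815679 to 104876398, minus strand) had 597, 547 and 547 CPM in IRF3-2D and 1141, 1170 and 862 CPM in Ctrl livers, and it fell by 0.91 on the log2 scale (SE 0.13, adjusted p = 0.00302, edgeR). C8b (ENSMUSG00000029656, 104766317 to 104804548, plus strand) had 802, 736 and 741 CPM in IRF3-2D and 694, 766 and 597 CPM in Ctrl livers and was not called (log2 fold change 0.15, SE 0.11, adjusted p = 0.37, edgeR). With library totals alone C8b was called higher (log2 fold change 0.60, adjusted p = 0.0033, edgeR). C8a thus separated the groups while C8b did not. The ratio of C8b to C8a counts was 1.34, 1.35 and 1.36 in IRF3-2D and 0.608, 0.655 and 0.692 in Ctrl (2.07-fold, two-sided exact permutation p = 0.1, adjusted 0.14). Counts alone do not rank the chains, since the transcripts differ in length. Per kb of the longest transcript, C8b stood above C8a in both groups (339 against 156 CPM in IRF3-2D and 306 against 292 CPM in Ctrl). Neither gene shares a word with another gene, but C8a has 4 annotated transcripts and C8b has 3, and the printed promoter of C8a holds 1 match to the gamma-activated site, at position -228 from the start.

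The other terminal genes were not called by edgeR. Hc, which encodes C5, had 1341 to 1419 CPM in IRF3-2D and 1453 to 1863 CPM in Ctrl livers (log2 fold change -0.24, SE 0.11, adjusted p = 0.141, edgeR), and was called lower by DESeq2 (-0.27, adjusted p = 0.0435). C6 had 307 to 415 CPM in IRF3-2D and 340 to 481 CPM in Ctrl livers, with overlap. C8g and C9 had 6 to 26 counts in IRF3-2D and 15 to 33 counts in Ctrl libraries, low for genes that liver is known to make in quantity, and neither was called, except C8g as lower without IRF3-2D replicate 3 (-2.11, adjusted p = 0.0482, edgeR).

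Of the plasma regulators, C4bp showed the largest fold change of all 33 tested members. C4bp (ENSMUSG00000026405, chromosome 1, 130634773 to 130661632, minus strand) encodes C4b-binding protein, which speeds the decay of the classical and lectin convertase and serves as a cofactor for factor I. It had 116, 105 and 116 CPM in IRF3-2D and 26.6, 32.4 and 34.7 CPM in Ctrl livers, with every IRF3-2D liver far above every Ctrl liver. The log2 fold change was 1.85 (SE 0.12, adjusted p = 9.48e-05, edgeR), and it lay between 1.74 and 2.30 over the alternatives. Cfi, the protease that cleaves C3b and C4b with such cofactors, had 804, 777 and 698 CPM in IRF3-2D and 1251, 966 and 916 CPM in Ctrl livers (log2 fold change -0.46, SE 0.14, adjusted p = 0.0451, edgeR). The Cfi call was lost with library totals alone (-0.01), with no low-count filter, and in each leave-out except that of Ctrl replicate 3.

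Clu (ENSMUSG00000022037, chromosome 14, 65968483 to 65981547, plus strand) encodes clusterin, a chaperone in plasma that also blocks the terminal complex. It had 29.0, 39.6 and 38.5 CPM in IRF3-2D and 94.5, 97.1 and 83.6 CPM in Ctrl livers, and all IRF3-2D livers were lower. Clu fell by 1.36 on the log2 scale (SE 0.14, adjusted p = 0.00063, edgeR). Vtn, which encodes vitronectin, another plasma inhibitor of the terminal complex, had the highest level per length of the members tested: 1322 CPM per kb of its longest transcript in IRF3-2D and 1451 in Ctrl liver. Vtn was not called (log2 fold change -0.13, SE 0.08, adjusted p = 0.27, edgeR). With library totals alone it was called higher (log2 fold change 0.32, adjusted p = 0.0239, edgeR). On the same per-length scale Mbl2 stood next in IRF3-2D liver at 809 CPM per kb, against 388 in Ctrl liver, where Cfi at 502 stood above it.

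**Figure D3:**
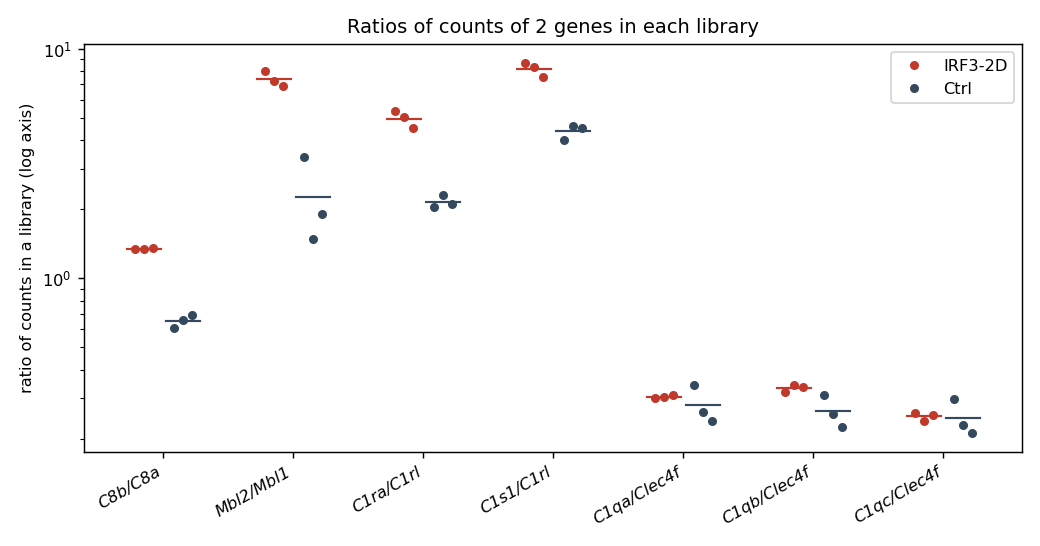
Ratio of the counts of 2 genes within each library (log axis), 1 point per liver with a line at the group mean, IRF3-2D in red on the left and Ctrl dark on the right of each pair. The first 4 ratios do not overlap between groups, as for C8b/C8a (1.34 to 1.36 against 0.608 to 0.692), nor does C1qb/Clec4f, while C1qa/Clec4f and C1qc/Clec4f do.

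Of the 7 macrophage-made members 3 were called higher and none lower. All 7 fold changes were positive with TMM, though that of Fcna was -0.01 without IRF3-2D replicate 1. By DESeq2 and by limma-voom 2 were higher and none lower, and at an unadjusted p under 0.05 the edgeR counts were 5 and 0. Their median log2 fold change was 0.48 (0.94 with library totals alone), against 0.03 over all tested genes, and the groups did not overlap for 4 of the 7. Of all tested genes 13.2% were higher and 44.9% did not overlap, and 4 of 7 is near that second share. The summed level was 250 ± 35.2 CPM in IRF3-2D and 187 ± 12.4 CPM in Ctrl liver (SD, n = 3 each).

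C1q, the recognition part of C1, is assembled from chains A, B and C, whose genes C1qa, C1qc and C1qb lie side by side on chromosome 4. C1qb (ENSMUSG00000036905, 136880129 to 136886187, minus strand) had 62.6, 68.0 and 51.1 CPM in IRF3-2D and 41.4, 38.5 and 31.9 CPM in Ctrl livers (log2 fold change 0.70, SE 0.14, adjusted p = 0.0113, edgeR). C1qa had 59.1, 60.2 and 47.1 CPM in IRF3-2D and 45.8, 39.4 and 34 CPM in Ctrl livers (log2 fold change 0.48, SE 0.14, adjusted p = 0.0458, edgeR). Both separated the groups, but the C1qa call was lost with RLE or upper-quartile factors and without IRF3-2D replicate 1 or 2 or Ctrl replicate 2 or 3. C1qc had 50.8, 47.3 and 38.4 CPM in IRF3-2D and 40.1, 34.4 and 30.01 CPM in Ctrl livers, with overlap between the groups, and was not called (log2 fold change 0.39, SE 0.15, adjusted p = 0.0952, edgeR). C1qc was called higher with library totals alone (0.84, adjusted p = 0.00532, edgeR) and with the replicate number as a block (0.39, adjusted p = 0.0351, edgeR). None of the 3 genes shares a word with another gene.

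Cfp, which encodes properdin, the stabiliser of the alternative convertase made by myeloid cells, had 32.3, 27.4 and 24.1 CPM in IRF3-2D and 21.7, 20.6 and 18.1 CPM in Ctrl livers (log2 fold change 0.47, SE 0.14, adjusted p = 0.0447, edgeR). Its call was not made by DESeq2 or limma-voom, nor with RLE or upper-quartile factors or with no low-count filter, and it was lost in each leave-out except that of IRF3-2D replicate 3. Fcna, the ficolin of mouse macrophages and a lectin of the lectin pathway, had 61.1, 57.9 and 45.0 CPM in IRF3-2D and 46.2, 52.7 and 56.2 CPM in Ctrl livers, with overlap and no call (log2 fold change 0.08, SE 0.14, adjusted p = 0.695, edgeR). The anaphylatoxin receptors were scarce. C3ar1, the receptor of C3a, had 62, 96 and 41 counts in IRF3-2D and 30, 19 and 26 counts in Ctrl libraries, and was not called (log2 fold change 1.11, SE 0.41, adjusted p = 0.0899, edgeR). C5ar1, a receptor of C5a, had 18 to 36 counts in IRF3-2D and 4 to 22 counts in Ctrl libraries, with overlap. With library totals alone both Fcna (log2 fold change 0.54, adjusted p = 0.0212, edgeR) and C3ar1 (1.58, adjusted p = 0.0222, edgeR) were called higher.

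Kupffer cells are the resident macrophages of the liver, and their markers are given beside these genes. Of 12 listed markers 10 were tested, of which 2 (Mpeg1 and Cd5l) were higher by edgeR (4 by DESeq2 and 3 by limma-voom) and none lower, with a summed level of 852 to 1171 CPM in IRF3-2D and 484 to 565 CPM in Ctrl liver. The edgeR calls were 20% of the tested Kupffer cell markers, against 26.3% of all tested genes. The marker Vsig4 also belongs to the second complement list described last. Without Mpeg1 the sums were 413 to 610 CPM in IRF3-2D and 381 to 425 CPM in Ctrl. Clec4f, a receptor found on Kupffer cells, had 196, 199 and 152 CPM in IRF3-2D and 134, 151 and 142 CPM in Ctrl livers and was not called (adjusted p = 0.0728, edgeR). IRF3-2D replicate 3 was the lowest of the 3 IRF3-2D livers for all 7 macrophage-made members and all 10 tested markers. Set against Clec4f within a library, C1qb stood at 0.319, 0.342 and 0.337 in IRF3-2D and 0.309, 0.256 and 0.224 in Ctrl (1.27-fold, two-sided exact permutation p = 0.1, adjusted 0.14). The same ratio for C1qa differed 1.10-fold (exact p = 0.4, adjusted 0.467) and that for C1qc 1.03-fold (exact p = 0.9, adjusted 0.9), both within the spread of the Ctrl livers. Clec4f was the only marker used as denominator, and its log2 fold change was 0.36. The 10 tested markers had a median of 0.45 and ran from -0.56 (Adgre1) to 2.05 (Mpeg1), with Cd5l at 0.64 and Folr2 at 0.71. Ratios to other markers were not computed, so these ratios do not set C1qb apart from Kupffer cell markers in general. Of the monocyte markers 2 of 5 were tested and 1 (Ly6c2) was higher by edgeR (1 by DESeq2 and 0 by limma-voom). Ly6c2 had 74, 102 and 27 counts in IRF3-2D and 8, 3 and 9 counts in Ctrl libraries. The monocyte list summed to 3.54 to 20.3 CPM in IRF3-2D and 2.19 to 4.003 CPM in Ctrl. Among 3 tested neutrophil markers edgeR, DESeq2 and limma-voom called 0, with 0 at an unadjusted p under 0.05, and the list summed to 8.41 to 14.1 CPM in IRF3-2D and 7.74 to 13.2 CPM in Ctrl. The part of cell numbers in the macrophage-made results was not tested.

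**Figure D4:**
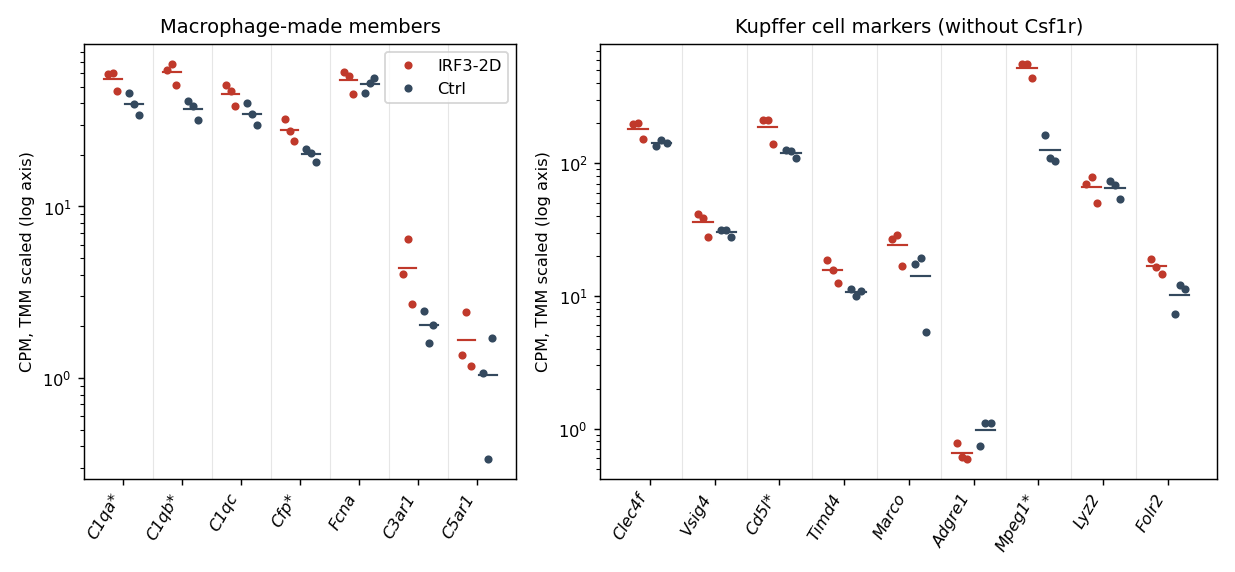
CPM (TMM scaled, log axis) of the 7 macrophage-made complement members (left panel) and of 9 Kupffer cell markers (right panel; Csf1r, at 0 in 1 library, is left out), with 1 point per liver and a line at the group mean, IRF3-2D red on the left and Ctrl dark on the right. C1qa, C1qb, Cfp and C3ar1 separate the groups, as do Clec4f, Cd5l, Timd4, Mpeg1 and Folr2, and asterisks mark adjusted p under 0.05.

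Among members made mainly by other cells, Cfd fell. Cfd (ENSMUSG00000061780, chromosome 10), which encodes factor D, also called adipsin and known as a product of fat cells, had 28, 20 and 25 counts in IRF3-2D and 34, 70 and 81 counts in Ctrl libraries. In CPM these were 1.81, 1.35 and 1.64 in IRF3-2D and 2.78, 5.89 and 6.33 in Ctrl, and Cfd fell by 1.64 on the log2 scale (SE 0.40, adjusted p = 0.0233, edgeR). The Cfd call was lost in each leave-out except that of Ctrl replicate 1. Of 6 listed adipocyte markers 4 were tested, of which Adipoq and Fabp4 were lower and none was higher, with sums of 12.9 to 16.0 CPM in IRF3-2D and 21.8 to 31.2 CPM in Ctrl. Lep reached 3 counts in 1 Ctrl library and Retn was at 0 throughout, and the part of fat tissue in this fall was not tested. Colec10, which encodes a collectin known from stellate cells in mouse liver, had 41.2 to 60.6 CPM in IRF3-2D and 47.5 to 64.9 CPM in Ctrl livers, with overlap. C7, a terminal component, had 11 to 32 counts in IRF3-2D and 24 to 37 counts in Ctrl libraries, also with overlap. Of 8 tested stellate markers 1 (Reln) was lower, with sums of 252 to 320 CPM in IRF3-2D and 313 to 373 CPM in Ctrl. Endothelial markers had 3 of 6 lower (sums 206 to 265 CPM in IRF3-2D and 297 to 324 CPM in Ctrl), but 0 lower and 1 higher with library totals alone. With those totals stellate markers had 0 lower and 1 higher, and adipocyte markers 1 lower. Of 5 cholangiocyte markers edgeR called 0 (2 at an unadjusted p under 0.05, 1 by DESeq2 and 0 by limma-voom).

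Membrane regulators, which protect host cells, gave no calls: edgeR, DESeq2 and limma-voom called 0 of 3, with 0 at an unadjusted p under 0.05. Cr1l, which encodes Crry, the rodent inhibitor of C3 convertases, had 13.5, 16.9 and 16.2 CPM in IRF3-2D and 11.9, 23.0 and 20.2 CPM in Ctrl livers. Cd55 and Cd59a, which encode inhibitors of convertases and of the terminal complex, had 3 to 28 counts in IRF3-2D and 3 to 20 counts in Ctrl libraries. At such counts their SEs were 0.51 and 0.90 on the log2 scale, and C3ar1, with a log2 fold change of 1.11 and an SE of 0.41, was not called either, so even differences larger than these SEs may not be detectable at this depth.

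**Figure D5:**
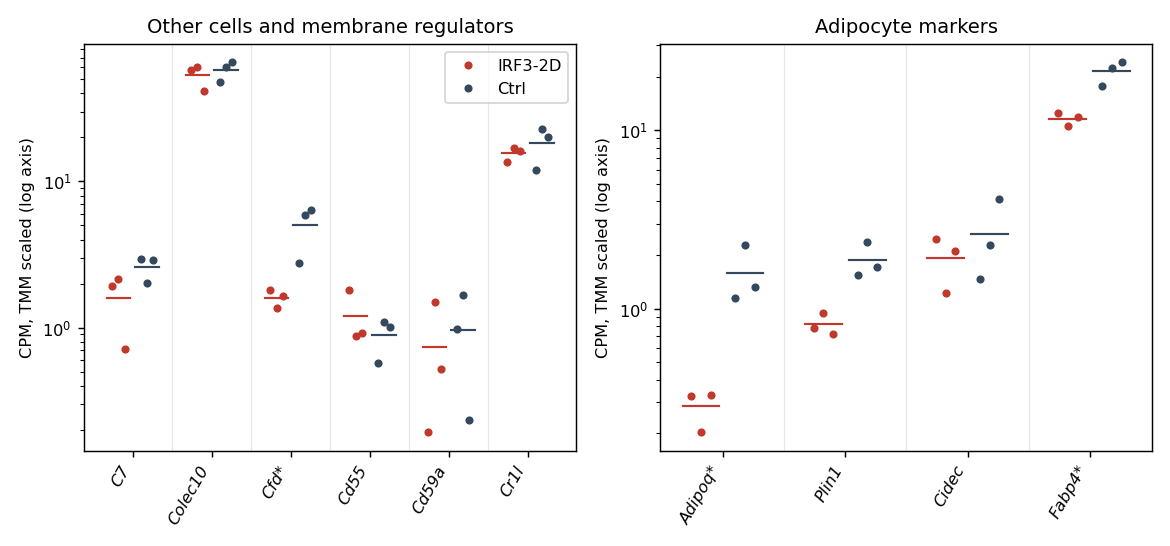
CPM (TMM scaled, log axis) of the 3 members made mainly by other cells and the 3 membrane regulators (left panel) and of the 4 tested adipocyte markers (right panel), with 1 point per liver and a line at the group mean, IRF3-2D red on the left and Ctrl dark on the right. Cfd, Adipoq, Plin1 and Fabp4 lie lower in IRF3-2D without overlap, and asterisks mark adjusted p under 0.05.

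Complement genes outside the 34 members were read from a second list of 28, with 24 in the table and 17 passing the filter. Of the 17, 1 was higher and 5 were lower (35.3% called, against 26.3% of all tested genes). Susd4, which encodes a membrane inhibitor of complement, had 2.72, 0.68 and 2.10 CPM in IRF3-2D and 18.1, 46.1 and 30.2 CPM in Ctrl livers, and it fell by 4.09 on the log2 scale (SE 0.52, adjusted p = 0.00175, edgeR). Cpn2, which encodes the regulatory chain of carboxypeptidase N, the plasma enzyme that inactivates C3a and C5a, averaged 252 ± 20.4 CPM in IRF3-2D and 467 ± 49.98 CPM in Ctrl liver (SD, n = 3 each), 1.85-fold lower (adjusted p = 0.00161, edgeR). Cd59b, a near copy of Cd59a, fell by 2.05 on the log2 scale (adjusted p = 0.0102, edgeR) at 10 to 21 counts in IRF3-2D and 43 to 74 counts in Ctrl libraries.

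The call of Cpn1 (1.26-fold lower, adjusted p = 0.0418, edgeR), the gene of the catalytic chain of carboxypeptidase N, was lost in each of the 6 leave-outs. Serping1, which encodes the C1 inhibitor that controls C1r, C1s and the MBL-associated proteases, had 786 to 870 CPM in IRF3-2D and 739 to 876 CPM in Ctrl livers, with overlap and no call (log2 fold change 0.07, SE 0.10, adjusted p = 0.66, edgeR). Serping1 was named after its values were seen.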

How the data were processed

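RNA of 6 mouse liver samples was measured by RNA sequencing of poly-A selected, strand-specific libraries, per the labels' protocols. The values are estimated counts per gene, deposited by the authors as whole numbers with 1 column per library and not normalized. The submitters' processing notes list Salmon 1.2.1 beside GRCm38 and mm10, with no role for any of them; annotation, summing to genes and strand setting are not given in the labels or headers. Groups and replicate numbers come from the sample titles, and columns were matched by library name. Whether libraries come from separate mice is not stated, so p-values reflect only the spread among these libraries, possibly technical. Every pair of libraries within a group differed beyond sampling noise (chi-square per degree of freedom 18.9 to 110).

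Of 20894 identifiers, 20860 were matched to symbols in GENCODE M21. Genes passing filterByExpr were tested with edgeR 4.0.16 (R 4.3.3): TMM, quasi-likelihood F-test, group as the only term, Benjamini-Hochberg adjustment over 10802 genes, threshold 0.05. Each SE is the absolute log2 fold change over the square root of F. Alternatives used RLE, upper-quartile or no factors, DESeq2 1.42.0, limma-voom (limma 3.58.1), other low-count filters, the replicate number as a block, and each library left out. Shared sequence is the share of a gene's 31-base words found in transcripts of other genes. The limit that no counts allow is 3 counts, or 0.194 to 0.252 CPM by library (counting error only). The members, lists and named genes (all members, called genes of the second complement list, and defining markers) were chosen with earlier results of these data known. Some called genes of that second list are not reported here.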

Additional observations from a re-analysis of the deposited data

How the results depend on the processing

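Of the 453 member values recomputed under 14 alternatives, 390 kept direction and side of the threshold, 33 lost a call, 15 gained one and 15 changed sign. None that changed sign was a member called in the main analysis. With library totals alone 4500 genes were higher and 571 lower, members were 13 and 3, other complement genes 7 and 3, and the medians were 0.21 for hepatocyte-made and 0.94 for macrophage-made members. The log2 fold changes that turned positive there were C1rl 0.14, C6 0.38, Cd59a 0.10, Cfb 0.26, Colec10 0.34, Cpn1 0.11, Cr1l 0.22, Hc 0.21, Masp2 0.22 and Vtn 0.32. Of these only Vtn was called higher. Other complement genes called higher numbered 1 in the main analysis, 0 with RLE factors, no low-count filter or the replicate block, and 2 with DESeq2, which also called 8 hepatocyte-made members lower against 5 by edgeR. Leaving out 1 library gave 851 to 1312 genes higher and 920 to 1363 lower, 5 to 8 members higher, 0 to 2 other complement genes higher, and hepatocyte-made medians of -0.32 to -0.19. Over these omissions C6 ran from -0.17 to 0.10, Cd59a from -1.39 to 0.27, Colec10 from -0.24 to 0.021, Fcna from -0.0114 to 0.19 and the log2 ratio C1qc/Clec4f from -0.0646 to 0.19. The cause was not tested. With the replicate block 9 members were higher and 5 lower (Cfd lost and C1qc gained a call), and 1038 genes were higher and 1128 lower. Deviations from the group means had correlations of 0.0855, -0.0716 and 0.0671 between same-numbered libraries, and of -0.114 to 0.0537 between the others. With 3 libraries per group these values cannot show whether the numbers pair the samples. The ratio omissions were chosen after seeing the data. Depth limits C2, C3, C7, C8g, C9, Cd55, Cd59a and C5ar1, at 37 or fewer counts in every library.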
